A study of Homo sapiens with 7 samples.

Results

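The regions described here are 2735 origin windows that the authors measured but left out of their selected list of origins, of 4767 origin windows with a row in all 6 library tables. Members were found by identifier: a row had to be present in every table and absent from the list. The other 2032 windows are on the list and serve for comparison, and are called listed origins below. The list itself has 2040 entries, of which 8 lacked a row in at least 1 table. Its label says that the origins were selected for an empty stretch of 5 kb upstream of the transcription start, so the unlisted windows are those that did not meet the authors' selection, whose other criteria, if any, were not known here.

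The libraries came from RPE1, an immortalised human retinal pigment epithelial cell line. The tested group was RPE1 cells with inducible Cas9 and a knockout of CFAP20 (CFAP20-KO, 3 libraries). It was set against WT cells of the same kind (WT, 3 libraries). Both groups share the background that the labels write as iCas9 p53/puro-dKO, so WT cells also lack p53. A pulse of 30 min with 2 mM bromouridine marked RNA as it was made, and marked RNA was pulled down with an antibody and sequenced (BrU-seq, paired 151-bp reads). The labels do not say whether CFAP20-KO cells are 1 clone, nor whether replicate libraries go back to different cultures. Each p-value therefore rests on library-to-library spread, part of which can be technical.

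Replication origins were mapped by the submitters from OK-seq, the sequencing of Okazaki fragments. These short fragments are made on the lagging strand, so the strand they come from switches where a pair of forks moves apart, and that switch marks an origin or a zone of initiation. In human cells such zones often lie beside active genes, so that a fork leaving the origin travels in the direction of transcription of the neighbouring gene. CFAP20 is a protein known from cilia and flagella that the series examines for roles in transcription and replication.

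Each window holds the BrU-seq signal (scaled coverage of the transcribed strand in bins of 200 bp) up to 100 kb on either side of the origin centre. Listed windows were turned so that the nearest gene reads from left to right. Before means -25 to -5 kb from the centre, centre means -5 to +5 kb, and after means +5 to +25 kb, in the direction of that gene. That the unlisted windows were turned in the same way is inferred from the listed ones, since the list gives no strand for them. Among 1119 unlisted windows with a strand from their signal shape, 81.7% had that of the nearest coding start. Of all listed origins 82.7% had it by their deposited strand, so the 81.7% and 82.7% are not a like comparison. Every unlisted before, after and after-to-before value therefore rests on an orientation that could not be checked directly for most windows. Levels are log2(signal + 0.011), a scale that understates changes of low windows, and a window was called active where its mean signal within 25 kb of the centre reached 0.011. Of the unlisted windows 2539 were active (92.8%), as were 1844 listed origins. Because a window spans 200 kb, 1392 unlisted windows (50.9%) overlapped another origin window and 599 (21.9%) a listed one, so rows can hold the same transcripts, although only 76 (2.78%) had another origin within 50 kb.

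Depth differed between libraries. The smallest step of the scaled signal, which is smaller in deeper libraries, was largest in CFAP20-KO replicate 1 (0.393) and smallest in WT replicate 2 (0.0733). Unlisted windows listed at 0 at the centre made up 28.1%, 19.4% and 18.5% in CFAP20-KO replicates 1 to 3 and 23.2%, 15.6% and 17.4% in WT replicates 1 to 3. The shallowest library had the most such windows and the deepest the fewest. By a number in the column names of another deposited table, CFAP20-KO replicate 1 shares a run with WT replicate 1, and CFAP20-KO replicates 2 and 3 share one with WT replicate 3. WT replicate 2 shares a run with no CFAP20-KO library. CFAP20-KO replicates 2 and 3 were closer to each other than any other 2 libraries. Their window levels correlated at 0.992 before, 0.980 at and 0.993 after the centre. Some results that turn on them are therefore also given with the average of both. The signal of CFAP20 itself was not measured in these windows, so the knockout was not checked. Of 14 marker genes for cell types only MAP2, of neurons, could be tied to an unlisted window. The cell type label was therefore not checked either.

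The centre of an unlisted window could be placed where the window overlapped a listed one with nearly the same signal (correlation over 0.97). This worked for 192 unlisted windows, in steps of 200 bp, and no placed centre was checked against a known one. Of 89 such windows with a strand from their signal shape, 85 had the same strand by both routes. The 300 bases around the placed centre are shown for the located windows with the highest centre signal and with the lowest after-to-before ratio. They give the sequence near which each pattern is centred. CG dinucleotides are in capitals, and each sequence is hg38, written 5′ to 3′ in the direction of its window.
EIF4G1 window, chr3:184316952-184317251, plus strand: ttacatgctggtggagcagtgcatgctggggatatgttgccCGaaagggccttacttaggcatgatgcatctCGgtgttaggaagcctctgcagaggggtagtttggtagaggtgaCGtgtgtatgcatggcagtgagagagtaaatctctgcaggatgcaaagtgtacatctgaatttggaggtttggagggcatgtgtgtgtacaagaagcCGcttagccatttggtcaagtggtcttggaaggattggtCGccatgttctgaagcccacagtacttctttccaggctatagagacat
MKI67 window, chr10:128092952-128093251, minus strand: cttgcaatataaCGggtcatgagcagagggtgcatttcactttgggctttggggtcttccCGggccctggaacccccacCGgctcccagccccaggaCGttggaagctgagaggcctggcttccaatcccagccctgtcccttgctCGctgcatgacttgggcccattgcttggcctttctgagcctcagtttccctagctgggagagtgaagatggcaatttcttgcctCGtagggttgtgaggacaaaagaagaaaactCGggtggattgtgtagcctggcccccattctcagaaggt
The EIF4G1 sequence holds 5 CG dinucleotides at a GC content of 49.3%, and the MKI67 sequence 7 at 56.7%. The EIF4G1 centre lies inside the gene of that translation initiation factor. The MKI67 window was matched to the gene of the proliferation marker Ki-67, with its centre outside annotated genes.

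These windows show different patterns among unlisted origins. In the EIF4G1 window the signal at the centre was 27.3, 20.5 and 19.4 in CFAP20-KO replicates 1 to 3, against 41.5, 8.61 and 35.0 in WT replicates 1 to 3. Transcription ran through the origin there, and the groups overlapped. The MKI67 window was transcribed mainly on one side. It held 23.1, 66.1 and 52.5 before the centre in CFAP20-KO libraries and 40.9, 47.4 and 51.5 in WT libraries, and after it 0.165, 0.053 and 0.054 in CFAP20-KO libraries and 0.201, 0.254 and 0.039 in WT libraries.

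Across unlisted origins, transcription within 25 kb was lowest at the centre and highest after it. Before the centre, the median signal was 0.193, 0.192 and 0.202 in CFAP20-KO replicates 1 to 3 and 0.228, 0.177 and 0.284 in WT replicates 1 to 3. At the centre it was 0.116, 0.11 and 0.113 in CFAP20-KO libraries and 0.129, 0.106 and 0.154 in WT libraries. After the centre it was 0.417, 0.458 and 0.455 in CFAP20-KO libraries and 0.474, 0.345 and 0.564 in WT libraries. In each of the 6 libraries the order was after, before, centre, and in each region the CFAP20-KO values lay within the range of the WT values. In 2-kb blocks, the median profile peaked between 24 and 32 kb after the centre.

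**Figure D1:**
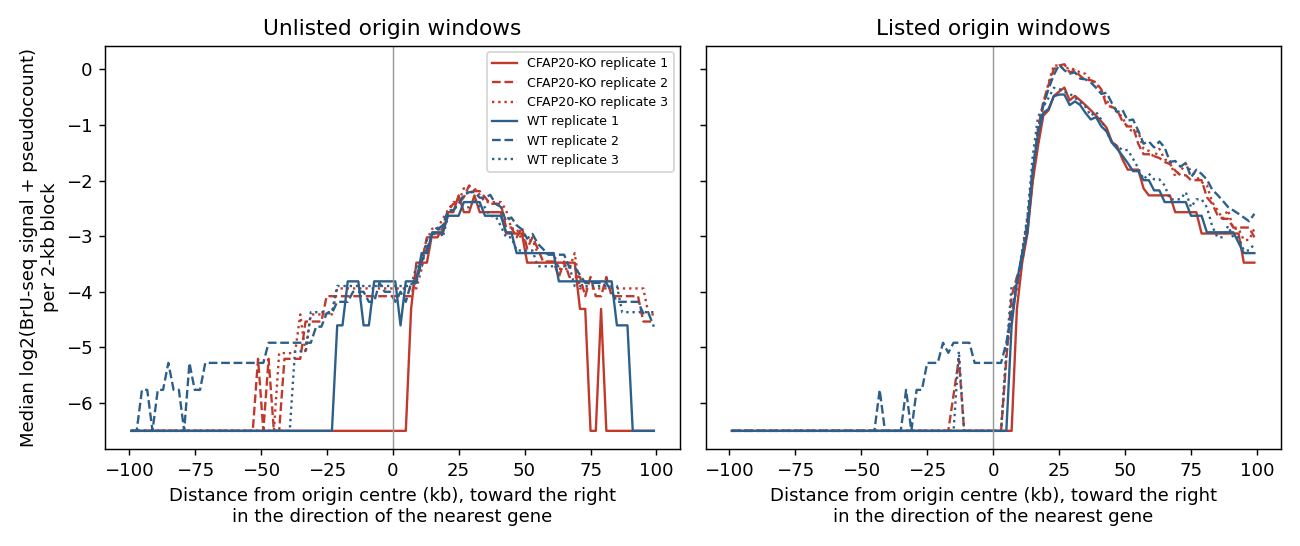
Median BrU-seq level in 2-kb blocks (log2 of signal plus pseudocount, vertical axis) against distance from the origin centre in kb (horizontal axis), for active unlisted windows (left) and active listed origins (right), 1 line per library. The lowest value on the vertical axis (-6.51) is a median of 0. At the centre unlisted windows reach it only in CFAP20-KO replicate 1 and listed origins in every library but WT replicate 2. Unlisted windows peak at -2.39 to -2.09, listed origins at -0.45 to 0.09.

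The median hides a wide spread between windows. At the centre, the lower quartile of the active unlisted windows was a log2 level of -5.24, -5.23 and -5.13 in CFAP20-KO libraries and -5.13, -5.15 and -4.92 in WT libraries. The 28 windows with the highest signal held 36.4%, 33.3% and 32.7% of all centre signal in CFAP20-KO libraries, and between 31.9% and 37.98% in WT libraries. These CFAP20-KO shares lay within the range of the WT shares. The after-to-before ratio of a window, averaged over the 6 libraries, had a 10th percentile of -5.21 and a 90th percentile of 7.32 on the log2 scale. In 972 unlisted windows (38.3%) the signal after the centre exceeded that before it by more than 2-fold in all 6 libraries, and in 709 (27.9%) the signal before exceeded that after. Among listed origins these shares were 52.2% and 19.7%.

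Unlisted and listed origins differed in shape, and the difference had the same sign in every library. The level at the centre of unlisted windows exceeded that of listed origins by 1.15, 1.06 and 1.04 on the log2 scale in CFAP20-KO libraries and by 1.14, 1.01 and 1.10 in WT libraries. The mean was 1.08, or 2.11-fold. The two-sided exact sign-flip test over 6 libraries gave p = 0.031, the smallest it can give, and 0.031 after adjustment over 3 tests. The after-to-before ratio was 0.65, 0.52 and 0.51 for unlisted windows in CFAP20-KO libraries and 0.62, 0.42 and 0.52 in WT libraries. For listed origins it was 2.32, 2.33 and 2.35 in CFAP20-KO libraries and 2.27, 2.31 and 2.23 in WT libraries. The difference averaged -1.76 (exact sign-flip p = 0.031) and rests on the inferred orientation. The libraries share the same windows, so this test speaks of the libraries' agreement for these windows and not of other origins.

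Both sides of the centre contributed. Before the centre unlisted windows were 1.07 higher than listed origins on the log2 scale (0.95 to 1.32 over libraries). After the centre they were lower, by a mean difference of -1.30 (-1.48 to -1.14). The centre was also less depleted relative to the flanks beyond 50 kb, with a mean log2 centre-to-flank ratio of -1.48 for unlisted windows and -2.65 for listed origins, a difference of 1.18 (exact sign-flip p = 0.031). The list was selected for empty sequence upstream of a gene, so a lower level before the centre of listed origins is close to how they were picked. The after-to-before ratio uses that level. Near a start the centre region, which the centre level and the centre-to-flank ratio use, can take in the selected stretch. The sign-flip p-values are therefore not independent of the selection. Taking out the unlisted windows that overlap a listed one left 1968 active windows and differences of 1.04 at the centre and -1.75 in the after-to-before ratio. With regions only 2 to 10 kb from the centre the after-to-before difference was -0.16 (exact sign-flip p = 0.125).

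**Figure D2:**
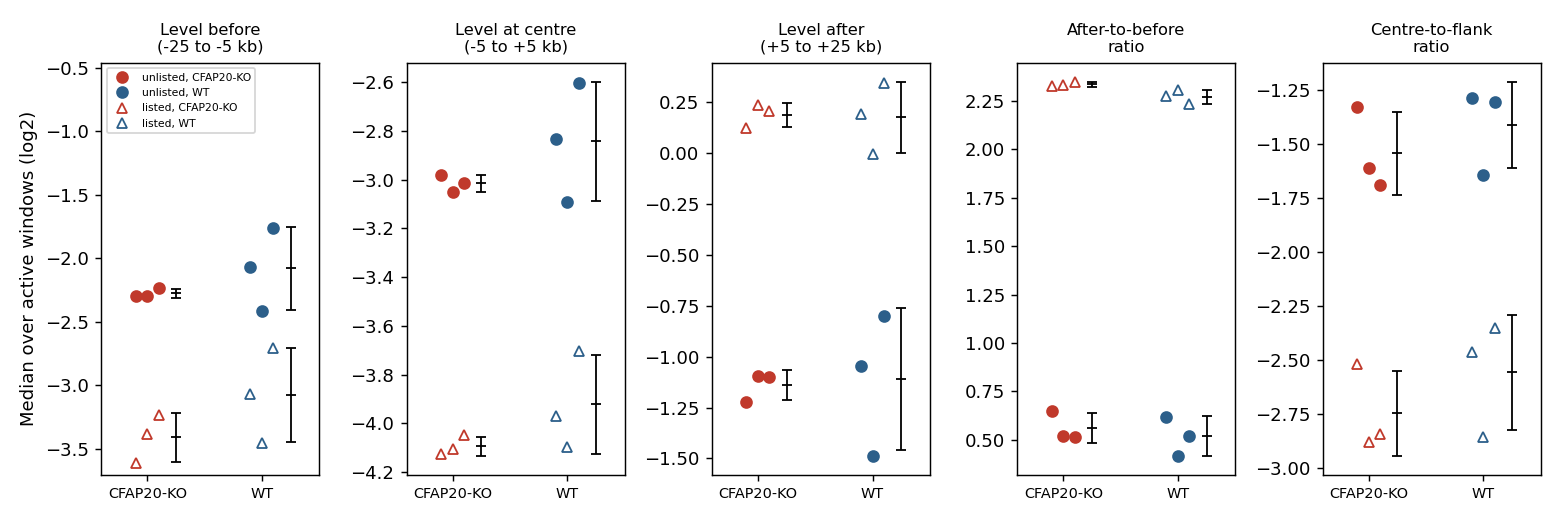
Median over active windows in each library (log2, vertical axes, a separate scale per panel) of the level before, at and after the centre and of the after-to-before and centre-to-flank ratios, with CFAP20-KO left of WT. Filled circles are unlisted windows, open triangles listed origins, and black bars the mean ± SD of 3 libraries. Circles and triangles separate in every panel, while CFAP20-KO and WT circles overlap in every panel.

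The windows also differed in where they lie in the genome. The row identifiers carry an hg38 coordinate, which for listed origins lay a median of 1667 bp from the deposited centre, so positions are approximate. Of unlisted windows 1032 (37.7%) had this coordinate inside a protein-coding gene, against 376 listed origins (18.5%). A coding gene lay in the 5 kb upstream of the nearest coding start for 23.1% of unlisted windows and 11.9% of listed origins. The coordinate was downstream of the nearest coding start in 40.1% of unlisted windows and 28.3% of listed origins. The median distance to that start was 14760 bp for unlisted windows and 14521 bp for listed origins, but the distances were spread differently. Within 5 kb lay 21.3% of unlisted windows and 16.4% of listed origins, between 5 and 20 kb 35.1% and 43.8%, and beyond 20 kb 43.6% and 39.8%. The GC content of the surrounding 10 kb was 43.0% for unlisted windows and 42.5% for listed origins. Chromosome 19 had the highest share of unlisted windows (69.1%) and chromosome 13 the lowest (44.9%).

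The unlisted windows nearest to a gene start were the most transcribed at the centre. These classes were made after the signal had been seen and are described without a test. The 571 active unlisted windows within 5 kb of a coding start had a median centre level of 0.67, 0.29 and 0.32 in CFAP20-KO libraries and 0.77, 0.01 and 0.67 in WT libraries. The 935 windows whose nearest start lay 5 to 20 kb away had a mean over libraries of -3.58, and the 1033 beyond 20 kb a mean of -3.51. Listed origins within 5 kb of a start averaged -0.88, those 5 to 20 kb away -4.86 and those beyond 20 kb -3.95. Unlisted windows stood higher than listed origins in each distance class. The classes use the approximate coordinate, which lay within 5 kb of the deposited centre in 84.6% of listed origins. Lying inside a gene or downstream of the start was not held equal between unlisted and listed windows.

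The after-to-before ratio was lowest beyond 20 kb from a start. It averaged 2.09 for unlisted windows and 3.87 for listed origins within 5 kb of a start, and 1.80 and 4.16 between 5 and 20 kb. Beyond 20 kb it was negative in all 6 libraries for unlisted windows, between -0.99 and -0.79, against -0.16 on average for listed origins. Windows inside a gene had more signal at the centre than those outside, -2.12 against -3.38 for unlisted windows and -3.36 against -4.18 for listed origins. With a coding gene in the 5 kb upstream of the nearest start, the ratio of unlisted windows was -0.02, and without one it was 0.70. The corresponding ratios of listed origins were 0.89 and 2.46, so a difference from listed origins was present on both sides of this split. The split uses the approximate coordinate and coding genes only. It placed 11.9% of listed origins on the side with a gene, so it is not the authors' own criterion.

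**Figure D3:**
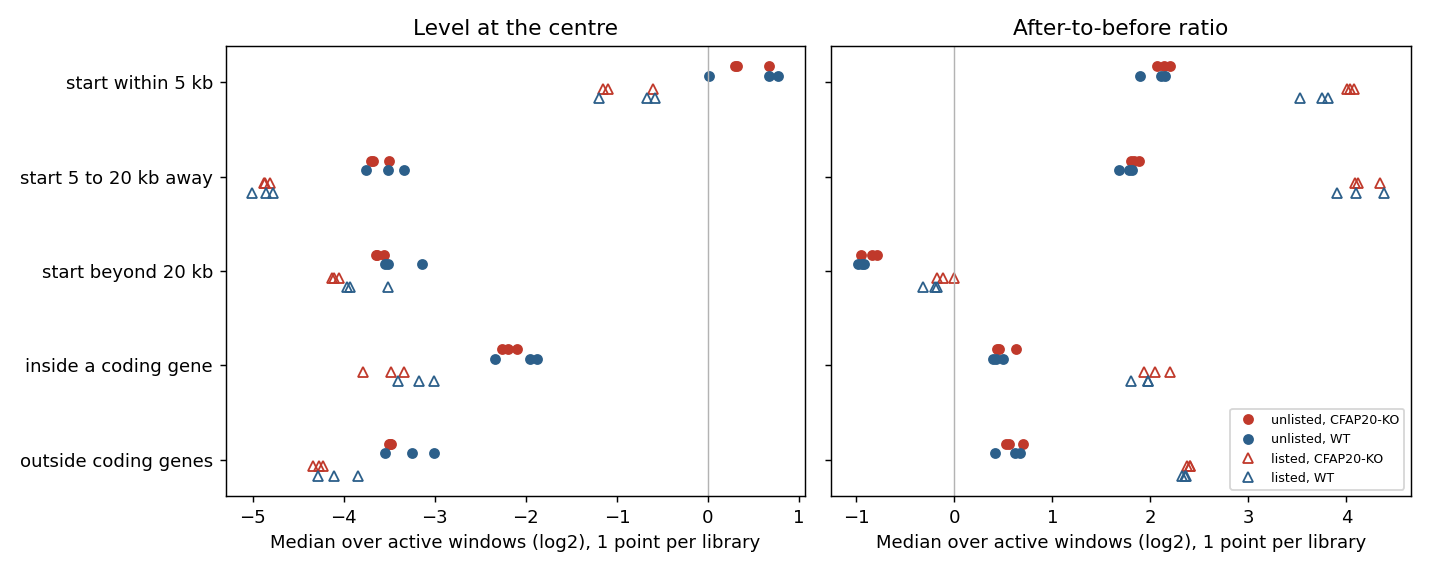
Median level at the centre (left) and after-to-before ratio (right) in each library (log2, horizontal axes), for windows grouped by distance of the row identifier's coordinate from the nearest coding start and by lying inside or outside a coding gene. Filled circles are unlisted windows and open triangles listed origins, CFAP20-KO above WT. Unlisted windows within 5 kb of a start lie at 0.01 to 0.77 at the centre, and the ratio of unlisted windows turns negative beyond 20 kb.

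Where the signal could be matched in shape to a gene, the origin's place relative to that gene could be described. Of 1080 such active unlisted windows, 500 (46.3%) were centred before the start of the matched gene, 204 (18.9%) inside it and 376 (34.8%) past its end. Among 973 matched listed origins these shares were 64.6%, 9.15% and 26.2%. Windows centred inside a matched gene had a mean centre level of 0.30 when unlisted and -0.82 when listed. The match uses the signal, so these levels are a description. The places are approximate: in listed windows given the right strand, the match lay within 1 kb of the deposited centre in 75.5%.

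The 10 unlisted windows with the highest signal at the centre included several at genes of the ribosome. A gene for a ribosomal protein was over the coordinate or had the nearest coding start in 6 of the 10, against 18 of the 2539 active unlisted windows (0.709%). The highest was at RPS19 (chromosome 19, 41870251), a protein of the small ribosomal subunit. Its centre held 224, 99.4 and 93.5 in CFAP20-KO libraries, against 290, 70.6 and 146 in WT libraries. The groups overlapped, and the spread within each group was larger than the difference (139 ± 73.9 in CFAP20-KO and 169 ± 111 in WT, SD, n = 3 each). Others at ribosomal protein genes included those near RPL37 and RPL23 of the large subunit and RPS24 and RPS13 of the small. The signal of the RPS13 window was matched in shape to PIK3C2A, a lipid kinase gene on the same strand, which held 92.1% of it.

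The RPL23 window (chromosome 17, 38856751) had the tightest replicates of the 10, with 61.6, 64.5 and 63.7 in CFAP20-KO libraries against 77.6, 66.3 and 77.3 in WT libraries. The groups did not overlap, and the log2 change was -0.22 (SE 0.09, limma adjusted p = 0.493), not past the threshold. The RPS24 window (chromosome 10, 78033501) held 66.4, 97.5 and 97.0 in CFAP20-KO libraries and 80.3, 83.1 and 108 in WT libraries. Here the groups overlapped. The other 4 windows lay at SDC4, a cell-surface proteoglycan, SERPINH1, the collagen chaperone HSP47, SUPT5H, an elongation factor subunit that also controls pausing of RNA polymerase II, and AMPD3, an AMP deaminase. The SDC4 window held 161, 79.1 and 69.1 at the centre in CFAP20-KO libraries and 188, 43.0 and 143 in WT libraries, the SERPINH1 window 134, 53.4 and 49.6 in CFAP20-KO libraries and 102, 18.7 and 76.6 in WT libraries. In both, WT replicate 2 was the lowest library. Genes this short or crowded can share a window, and the tables hold 1 strand, so the signal is given for the window and not for the gene.

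The windows with the steepest change across the centre were at or near 0 on one side and highly transcribed on the other. The NEK6 window (chromosome 9, 124252501), at the gene of a mitotic kinase, was listed at 0 before the centre in all 6 libraries. After the centre it held 153, 45.8 and 42.0 in CFAP20-KO libraries and 89.0, 21.9 and 42.5 in WT libraries. The next highest ratios were at INHBA, a subunit of activins and of inhibin A, and FHL2, a LIM-domain cofactor, with mean log2 ratios of 12.02 and 11.7. The lowest ratio was in a window 36729 bp downstream of the start of SNX5, a sorting nexin (chromosome 20, 17932251). It held 14.7, 29.4 and 30.4 before the centre in CFAP20-KO libraries and 39.3, 35.8 and 65.5 in WT libraries, and at most 0.0162 after it. The windows next to this one in rank had their nearest coding start at ID1, an inhibitor of basic helix-loop-helix factors, and YWHAH, a 14-3-3 protein, with ratios of -10.01 and -9.73.

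No shift of the median level around unlisted origins was detectable between CFAP20-KO and WT. The median level at the centre averaged -3.01 ± 0.03 in CFAP20-KO and -2.84 ± 0.24 in WT (log2, SD, n = 3 each), a difference of -0.17 (two-sided exact permutation p = 0.4). The smallest p that 3 against 3 libraries allow is 0.1. Before the centre the difference was -0.20 (exact permutation p = 0.4) and after the centre -0.03 (p = 0.8). The ratios changed as little, with differences of 0.04 for after-to-before (exact permutation p = 0.7) and -0.13 for centre-to-flank (p = 0.4). Over the 7 tests of this kind no adjusted p was below 0.933.

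The size of these differences depended on WT replicates 2 and 3, which moved them in opposite directions. Without WT replicate 2 the difference was -0.30 at the centre, -0.36 before and -0.22 after it. Each had an exact permutation p of 0.1, the smallest possible there, and the centre-to-flank difference was -0.25 (p = 0.2). Without WT replicate 3 it was -0.05 at the centre, -0.04 before and 0.13 after it (exact permutation p = 0.8, 0.8 and 0.7). The centre-to-flank difference was then -0.08 (exact permutation p = 0.6). With 1 library left out in turn the differences ran from -0.30 to -0.05 at the centre, from -0.36 to -0.04 before it, from -0.22 to 0.13 after it and from -0.25 to -0.06 for centre-to-flank.

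Within runs the differences between library medians at the centre were -0.15 and -0.43, before it -0.23 and -0.50, and after it -0.18 and -0.30. These differences of medians were negative in each run that held both groups. The median over windows of the change within each run was smaller: 0.0 and -0.25 at the centre, -0.05 and -0.22 before it, and 0.0 and -0.08 after it. WT replicate 2, which no run pairs with CFAP20-KO, had the lowest WT level in each of the 3 regions. The part of the run in these differences was not tested. The change between CFAP20-KO and WT at the centre in unlisted windows minus that in listed origins was -0.00039 on the log2 scale (exact permutation p = 1.0), but 0.51 with the narrower regions (p = 0.6). For the after-to-before ratio the change in unlisted windows minus that in listed origins was -0.02 (exact permutation p = 0.9), and 0.26 with the narrower regions (p = 0.1). A p of this size does not show that the changes are alike.

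Single windows were compared with limma across all 4383 active windows. Before the centre 0 unlisted windows passed an adjusted p of 0.05, where 0.0% of all windows were called, and 244 had an unadjusted p under 0.05 (background 9.72%). At the centre 1 unlisted window passed and was lower (background 0.0228%), and 274 had an unadjusted p under 0.05 (10.8%). After the centre 1 unlisted window passed and was lower (background 0.0456%), and 278 had an unadjusted p under 0.05 (11.9%). The groups did not overlap in 370 unlisted windows before the centre (14.6%, background 14.9%), 349 at the centre (13.7%, background 13.8%) and 449 after it (17.7%, background 19.1%). These shares were near those of all windows, which include the unlisted ones. Among listed origins the shares were 15.3% before, 13.9% at and 21.0% after the centre.

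The direction was also near the background. Before the centre CFAP20-KO was lower in 220 of the unlisted windows without overlap and higher in 150 (background 9.15% lower and 5.73% higher). At the centre 229 were lower and 120 higher (background 9.13% and 4.7%), and after it 230 were lower and 219 higher (background 9.51% and 9.56%). Lower windows outnumbered higher ones before and at the centre, and after it the counts were nearly even.

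With the run as a covariate, a fit in which WT replicate 2 has no weight, more windows passed. Before the centre 26 unlisted windows were lower and 4 higher (30 in all, background 0.867% lower, 0.114% higher and 0.981% together). At the centre 23 were lower and 5 higher (28 in all, background 0.981%, 0.16% and 1.14%). After the centre 210 were lower and 111 higher (321 in all, background 8.69%, 5.16% and 13.8%). That last count was 12.6% of active unlisted windows, so it too was near the background, which includes these windows. Among listed origins the share was 15.5%.

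The window that passed after the centre is on chromosome 10 at 122859751, over FAM24B, and its signal was matched to C10orf88, past whose end it is centred. After the centre it held 0.342, 0.562 and 0.558 in CFAP20-KO libraries, against 3.53, 3.34 and 3.69 in WT libraries. All CFAP20-KO libraries lay below all WT libraries, and WT replicates differed little. The log2 change was -2.86 (SE 0.30, limma adjusted p = 0.0425), and within runs it was -3.33 and -2.70. The same window had 0, 0.0251 and 0.0353 at the centre in CFAP20-KO libraries and 0.276, 0.266 and 0.531 in WT libraries (limma adjusted p = 0.186). With CFAP20-KO replicates 2 and 3 averaged into 1 library, the adjusted p after the centre was 0.257, and with any 1 of the 6 libraries left out 0 unlisted windows passed there.

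The window that passed at the centre is on chromosome X at 154325001, inside TKTL1, a transketolase-like gene. It was listed at 0 in all 3 CFAP20-KO libraries, against 0.0647, 0.0705 and 0.0622 in WT libraries. The level in WT is low. These values are means over all bins of the centre region, so 1 step in 1 bin (0.0733 to 0.393 by library) adds far less than a step to them. The limma adjusted p was 0.00458, and it was 0.122 with CFAP20-KO replicates 2 and 3 averaged. With 1 library left out, between 0 and 14 unlisted windows passed at the centre, the 14 without WT replicate 2 (0.551% of unlisted and 0.548% of all windows). After the centre the same window had 0, 0.0064 and 0 in CFAP20-KO libraries and 0.174, 0.0638 and 0.183 in WT libraries (limma adjusted p = 0.0955).

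Other large differences did not pass the test but separated the groups. The windows named next were chosen after their values were seen, as those with the largest changes at the centre among windows whose groups did not overlap and whose centre signal reached the median of active unlisted windows, which the TKTL1 window did not. At PARD3, the gene of a cell polarity scaffold (chromosome 10, 34815501), the centre held 2.51, 1.71 and 1.84 in CFAP20-KO libraries, against 27.9, 47.5 and 5.98 in WT libraries. After the centre it held 3.39, 3.11 and 3.10 in CFAP20-KO libraries, against 27.8, 63.5 and 6.69 in WT libraries. CFAP20-KO libraries were close to each other, whereas WT libraries spread widely. The log2 change at the centre was -3.32 (SE 0.84, limma adjusted p = 0.274), with -3.47 and -1.75 within runs.

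The other windows of this kind with lower values in CFAP20-KO lay at ARHGAP29, a GTPase-activating protein, at IL18, an inflammatory cytokine, and between genes with the start of SOX2 as the nearest. The ARHGAP29 window (chromosome 1, 94272501) held 0.0463, 0.135 and 0.180 at the centre in CFAP20-KO libraries and 0.994, 0.771 and 0.699 in WT libraries (log2 change -2.82, limma adjusted p = 0.186). The IL18 window (chromosome 11, 112162751) held 0.0308, 0.0565 and 0.0565 in CFAP20-KO libraries and 0.218, 0.407 and 0.403 in WT libraries. It too had separate groups before and after the centre. The SOX2 window (chromosome 3, 181623251) held 0.0231, 0.0973 and 0.159 in CFAP20-KO libraries and 0.512, 0.418 and 0.662 in WT libraries.

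Windows with higher values in CFAP20-KO showed smaller changes. The EXD1 window (chromosome 15, 41227001) held 0.555, 0.270 and 0.258 at the centre in CFAP20-KO libraries and 0.0294, 0.0288 and 0.143 in WT libraries, a log2 change of 2.48 (SE 0.68, limma adjusted p = 0.309). On chromosome 1 at 97057251, 335586 bp downstream of the start of PTBP2, a splicing regulator, the centre held 0.0848, 0.298 and 0.378 in CFAP20-KO libraries and 0.0235, 0.0403 and 0.0403 in WT libraries. This window was separate in all 3 regions. The remaining 3 had their nearest coding starts at RASL10A, a Ras-like GTPase, LRRC14B, with PLEKHG4B over the coordinate, and HTR6, a serotonin receptor, with log2 changes of 2.15, 2.05 and 1.98 and limma adjusted p of 0.242, 0.387 and 0.456.

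**Figure D4:**
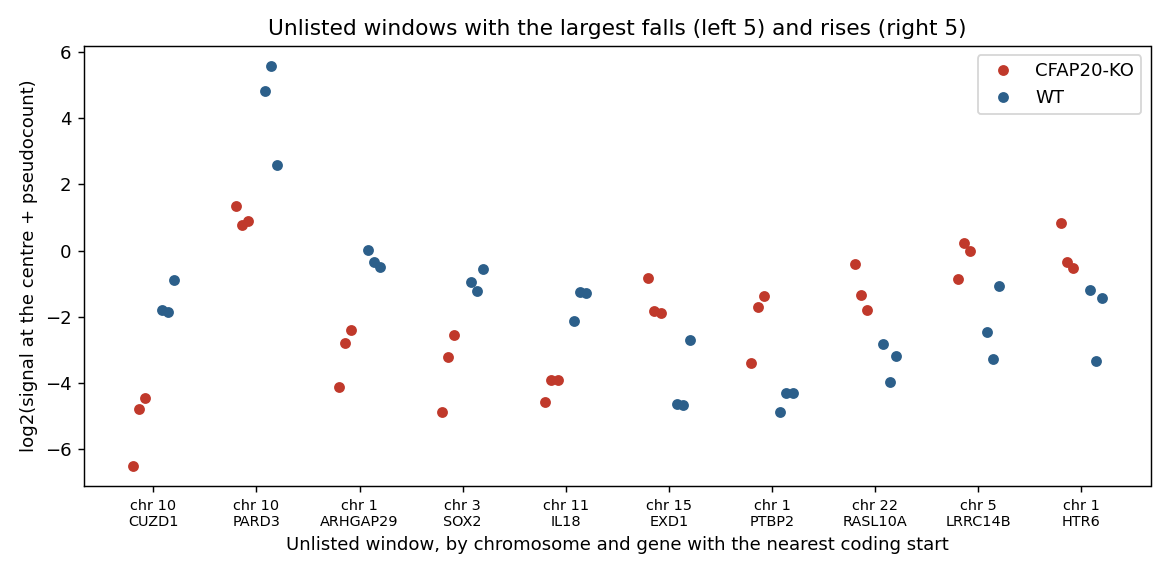
Level at the centre (log2 of signal plus pseudocount, vertical axis) of the 5 unlisted windows with the largest falls and the 5 with the largest rises among windows whose groups do not overlap and whose centre signal is at least the median of active unlisted windows, 1 point per library, CFAP20-KO left of WT in each window. Labels give the chromosome and the gene with the nearest coding start. None of the 10 passed an adjusted p of 0.05 at the centre, and the 3 WT points at PARD3 span 5.98 to 47.5 in signal.

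Windows lower in CFAP20-KO were unevenly spread over chromosomes. Over all active unlisted windows the median log2 change at the centre was -0.04, and in 9.02% of them all CFAP20-KO libraries lay below all WT libraries (background 9.13%). On chromosome 7 that share was 21.9% (28 of 128), on chromosome 13 17.3% (9 of 52), on chromosome 20 17.0% (9 of 53) and on chromosome 12 16.7% (22 of 132). On chromosome 19 it was 0 of 55, with a median log2 change of 0.08. Within runs that change was 0.0 and -0.51, against 0.0 and -0.25 over all active unlisted windows. The distal part of chromosome 7 stood out in earlier results of these data and was looked at for that reason. Beyond 100 Mb it held 51 active unlisted windows, of which 20 (39.2%) were lower at the centre without overlap and 1 was higher, with a median log2 change of -0.61 (-0.68 and -0.87 within runs).

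The same stretch of chromosome 7 was lower on both sides of the origins. Before the centre the median change was -0.78, with 21 windows (41.2%) lower without overlap and 1 higher (background 9.15% lower). After it the median change was -0.68, with 16 windows (31.4%) lower and 0 higher (background 9.51% lower). The 41 listed origins there were lower too, with median changes of -0.52 before, -0.25 at and -0.90 after the centre. Of these origins 13 (31.7%), 8 (19.5%) and 27 (65.9%) were lower without overlap, and 0, 0 and 1 were higher. No test was made of single chromosomes.

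**Figure D5:**
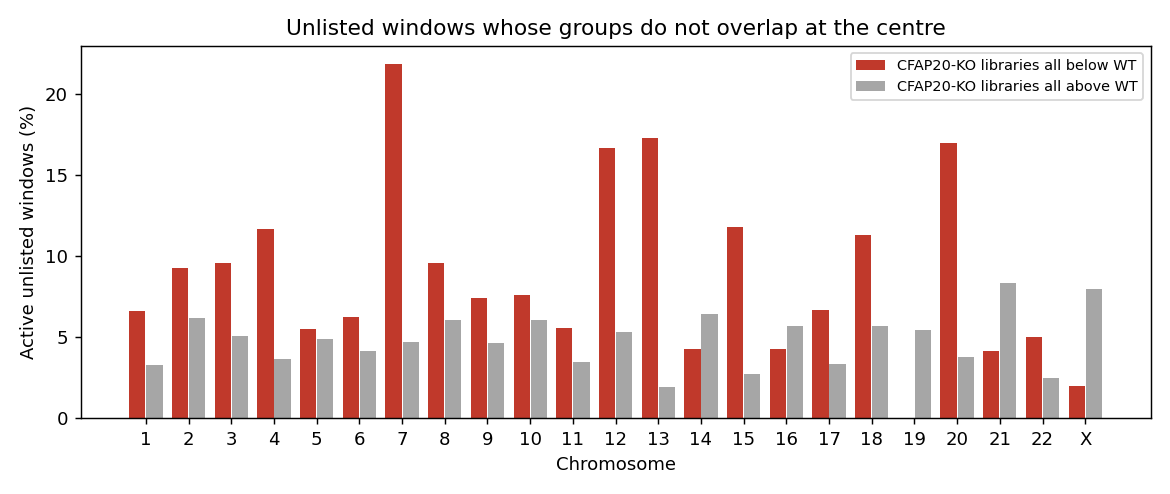
Share of active unlisted windows on each chromosome (percent, vertical axis) whose CFAP20-KO libraries at the centre all lie below (red) or all above (grey) the WT libraries. Chromosome 7 has the highest share below (21.9%), followed by chromosomes 13, 20 and 12, and chromosome 19 has none.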

How the data were processed

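The deposited origin tables give signal, that is coverage of the transcribed strand in bins of 200 bp, which the authors scaled library by library. What the scale refers to was not known here. Every value was a whole multiple of 1 step per library (tolerance 0.01 of a step), but a step is not known to be 1 read, so count models and counting intervals were not used. The genome build was hg38, and the tools listed were R 4.0.5, SAMtools 1.11, HOMER 4.8.2 and STAR 2.7.7a, with Trim Galore 0.6.5 and FastQC 0.11.9, per the submitters' processing notes, which give no order.

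Region means were tested as log2(signal + pseudocount), the pseudocount being the 10th percentile of non-zero region means (0.011), in limma (version 3.58.1, R 4.3.3; intensity trend and robust variance, Benjamini-Hochberg adjustment at 0.05 over all 4383 active windows). For medians per library, groups (3 against 3) were tested by exact permutation and unlisted against listed windows by exact sign flips over 6 libraries, both two-sided. Positions came from GENCODE 44 protein-coding genes and the row identifiers.

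Of listed windows tied to a gene by signal shape (correlation over 0.5, gap to the next best over 0.3, limits picked for their accuracy on listed windows), 97.1% had the deposited strand. Members, lists and tests were chosen with earlier results of these data known, and position classes, located centres, the count of ribosomal protein genes and the set without overlap with listed windows after the values were seen. Named windows are the 10 with the highest centre signal, those past the threshold, the 3 highest and 3 lowest after-to-before ratios among windows with at least the median centre signal, and 10 further windows named as chosen afterwards; some of these and 1 sequence are not reported here.

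Replicate numbers were not used as pairs. The rescue library was not analysed here. Alternatives changed the pseudocount, the filter, the region bounds, the scaling, the summary, the pairing, the run and the libraries used.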

Additional observations from a re-analysis of the deposited data

How the results depend on the processing

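The level at the centre, the after-to-before ratio and the centre-to-flank ratio of unlisted minus listed origins kept their sign under every alternative run. The after-to-before difference missed the threshold with narrower regions (-0.16, exact sign-flip p = 0.125). With CFAP20-KO replicates 2 and 3 averaged the 3 differences were 1.09, -1.75 and 1.17, and with each library left out in turn they ran from 1.07 to 1.09, from -1.79 to -1.74 and from 1.16 to 1.2. These averaged and left-out values have an exact p of 0.0625, the smallest that 5 values allow. Library centring, the block and the run cannot change differences within a library and were not run for them.

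Of the CFAP20-KO minus WT differences, the level after the centre changed sign with a filter at 10 times the pseudocount (0.089), with wider regions (0.041) and with the mean over windows (0.048), and ranged from -0.22 to 0.13 with 1 library left out. The level at the centre then ran from -0.30 to -0.053, the level before it from -0.36 to -0.037 and the centre-to-flank ratio from -0.25 to -0.060. The after-to-before ratio ranged from -0.0099 to 0.092 with 1 library left out. The change at the centre in unlisted minus that in listed windows was 0.014 with the pseudocount divided by 4, 0.042 with the filter at 10 times, 0.51 with narrower regions, 0.011 with the mean and 0.016 with replicates 2 and 3 averaged, and ran from -0.037 to 0.027 with 1 library left out. For the after-to-before ratio it was 0.0087 with the pseudocount multiplied by 4, 0.048 with no filter, 0.26 with narrower regions and 0.0036 with the average, and ran from -0.090 to 0.028. The cause was not tested.

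The labels do not pair same-numbered libraries, although those of replicates 1 and 3 share a run number and those of replicate 2 do not. For replicates 1 to 3, their deviations from the group means correlated at 0.58, 0.33 and 0.009 before the centre. At the centre these were 0.38, 0.20 and 0.088, and after it 0.55, 0.28 and 0.063. Pairs of unlike number ran from -0.50 to 0.36 before, -0.31 to 0.18 at and -0.49 to 0.32 after the centre. The highest of these in each region was CFAP20-KO replicate 3 with WT replicate 2, so the replicate block is an alternative only. Counts of unlisted windows past the threshold moved with the fit. Before the centre (0) they were 1 with no filter (0.0366% of unlisted and 0.0629% of all windows) and 6 with narrower regions (0.236% and 0.228%). They were 30 with the run covariate (1.18% and 0.981%) and 106 with the replicate block and centred libraries (4.17% of unlisted and 4.06% of all windows). At the centre (1) they were 0 with the filter at 10 times, with narrower regions, with centred libraries, with the replicate block and with the average. They were 28 with the run covariate (1.1% and 1.14%) and 30 with block and centring (1.18% and 1.07%). After the centre (1) they were 0 with no filter and with the average, and 2 with wider regions (0.0788% and 0.114%). They were 3 with centred libraries (0.118% and 0.183%), 4 with the replicate block (0.158% and 0.205%) and 189 with block and centring (7.44% and 7.94%). With the run covariate, in which WT replicate 2 has no weight and which was not run with the average, they were 321 (111 higher, 210 lower, background 13.8% of all windows). With 1 library left out they ran from 0 to 1 before, 0 to 14 at (14 without WT replicate 2) and 0 to 0 after the centre. Low depth limits windows at or near 0.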
